A study of Mus musculus with 8 samples.

Results

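The imprinted growth network genes are 10 genes of the mouse that are expressed from 1 parental allele. They are Mest, Peg3, Igf2, H19, Igf2r, Plagl1, Grb10, Dlk1, Ndn and Slc38a4, and several of them act on fetal growth. Every array probe annotated with 1 of these symbols was taken, which gave 14 of 25697 probes. They cover 9 of the 10 genes, out of 16590 genes with a probe, and no listed probe carried the symbol H19. RNA was profiled on Illumina bead arrays from mouse embryonic fibroblasts (MEFs) of genotype Trp53-/- Dnmt1+/+, which lack the tumour suppressor p53 and keep the maintenance DNA methyltransferase. Cells received 5-aza-2'-deoxycytidine (5-aza-dC), which is built into DNA and inactivates DNA methyltransferases there, or only its solvent DMSO (control), in both cases for 72 h. The labels give a dose of 1 µM, above that in the study's methods. There were 2 biological replicates of each group, and each replicate was hybridised to 2 technical arrays, so that n = 2 per group after the technical arrays were averaged. The MEFs were an established stock given to the study, their strain background is not known, and no source says that replicates were derived separately, so p-values measure the spread between these samples.

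Genomic imprinting marks a small set of genes in the germ line so that in the offspring only the copy from the father or only the copy from the mother is transcribed. The mark is DNA methylation at imprinting control regions, it is copied at each cell division by Dnmt1, and many imprinted genes sit in clusters under 1 such region. Paternally expressed members such as Igf2, Mest, Peg3, Dlk1 and Plagl1 tend to promote fetal growth or to be linked with it, and maternally expressed members such as Igf2r, Grb10 and H19 tend to restrain it. An array probe measures the transcripts of both alleles together, so the values below do not show which allele they came from.

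DNA methylation in mammals lies mostly at CpG dinucleotides, so start-site sequences of members that changed are shown with their CpGs. RefSeq promoter windows of 300 bases on build GRCm38.p6, from 250 bases before the transcript start to 50 after it, were found for 9 of the 10 members (17 windows, with none for H19). The motif searched was CG, which reads the same on both strands, and 94.6% of the 32851 windows of this length held at least 1. The median was 7 CpGs per window, with quartiles of 3 and 20. The richest window of each of 5 members is printed 5′ to 3′ on the strand of the gene with CG in capitals: Mest, the member that fell most, Grb10, the member with the most CpGs, Igf2, the growth factor, and Dlk1 and Slc38a4, the members that rose.
Mest, chr6:30737800-30738099, plus strand: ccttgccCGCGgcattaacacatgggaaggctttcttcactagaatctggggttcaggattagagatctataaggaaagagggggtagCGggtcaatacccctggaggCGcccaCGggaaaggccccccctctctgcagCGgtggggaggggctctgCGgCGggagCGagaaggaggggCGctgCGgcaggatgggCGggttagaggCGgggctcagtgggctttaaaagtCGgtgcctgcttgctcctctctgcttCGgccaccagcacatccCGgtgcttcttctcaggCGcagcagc
Grb10, chr11:12037371-12037670, minus strand: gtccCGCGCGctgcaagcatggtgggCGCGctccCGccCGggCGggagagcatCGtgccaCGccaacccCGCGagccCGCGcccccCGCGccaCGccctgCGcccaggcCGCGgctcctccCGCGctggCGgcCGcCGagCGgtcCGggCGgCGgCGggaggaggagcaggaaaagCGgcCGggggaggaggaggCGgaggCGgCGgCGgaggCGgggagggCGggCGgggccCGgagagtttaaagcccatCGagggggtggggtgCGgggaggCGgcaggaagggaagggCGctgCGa
Igf2, chr7:142658755-142659054, minus strand: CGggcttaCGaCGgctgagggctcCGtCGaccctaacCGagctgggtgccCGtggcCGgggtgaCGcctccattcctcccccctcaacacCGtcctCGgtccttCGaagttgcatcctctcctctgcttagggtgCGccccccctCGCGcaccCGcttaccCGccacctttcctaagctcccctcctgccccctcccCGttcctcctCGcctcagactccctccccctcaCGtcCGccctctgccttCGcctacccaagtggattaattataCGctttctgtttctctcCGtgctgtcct
Dlk1, chr12:109452573-109452872, plus strand: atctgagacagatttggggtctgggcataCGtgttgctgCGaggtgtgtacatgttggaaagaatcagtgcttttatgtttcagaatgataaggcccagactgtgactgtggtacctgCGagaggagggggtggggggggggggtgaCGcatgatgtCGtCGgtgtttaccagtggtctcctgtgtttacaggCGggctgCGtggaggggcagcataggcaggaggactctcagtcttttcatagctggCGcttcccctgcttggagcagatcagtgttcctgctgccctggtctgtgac
Slc38a4, chr15:97055907-97056206, minus strand: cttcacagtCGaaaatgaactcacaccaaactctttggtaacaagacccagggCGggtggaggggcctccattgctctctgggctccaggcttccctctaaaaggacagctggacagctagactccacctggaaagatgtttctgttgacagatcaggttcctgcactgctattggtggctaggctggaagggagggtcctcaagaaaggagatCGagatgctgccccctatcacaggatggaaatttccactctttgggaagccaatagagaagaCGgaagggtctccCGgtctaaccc

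The Grb10 window held 45 CpGs, and 98.1% of all windows held fewer. Igf2r held 34, Plagl1 26, Igf2 24 and Mest 17 CpGs in their richest windows, all above the median window. Peg3 held 13, Ndn 11 and Dlk1 9, also above the median, while each of the 3 Slc38a4 windows held 5, which is below it. A gene with several windows is favoured here, since its richest window was set against the median of all single windows. Alternative starts of 1 gene differed widely, since the 4 Igf2 windows held 2, 7, 14 and 24 CpGs and the 2 Grb10 windows held 9 and 45. These counts describe the reference sequence only. Methylation at these windows was not analysed here, and no transcript start was measured.

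Of the 10 members, 8 were detected well enough to be tested, and 5-aza-dC lowered 5 of them and raised 2. Mest fell most, by 16.1-fold, followed by Peg3, Grb10 and Igf2 at between 2.95-fold and 3.73-fold, and Igf2r at 1.63-fold. Dlk1 and Slc38a4 rose by 1.74-fold and 1.68-fold, and Ndn did not pass the test. The growth factor Igf2 and the 2 maternally expressed genes that could be measured, Igf2r and Grb10, were all lower. These counts have to be read against a wide background, since 52.0% of the 9502 genes tested passed the threshold of 0.05 on the Benjamini-Hochberg adjusted p of limma, 25.7% as lower and 26.3% as higher. The median log2 fold change was -1.13 over the 8 members and -0.02 over all genes. More than 2-fold lower calls were made for 4 of the 8 members and more than 2-fold higher calls for 0, where 7.98% and 7.50% of all genes had them. The replicates of the groups did not overlap for any of the 7 called members, nor did they for 76.5% of all genes. At the level of single probes, 8 of the 11 probes kept were lower and 2 higher, where 25.0% and 27.2% of all 14308 kept probes were, or 52.2% in either direction.

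**Figure D1:**
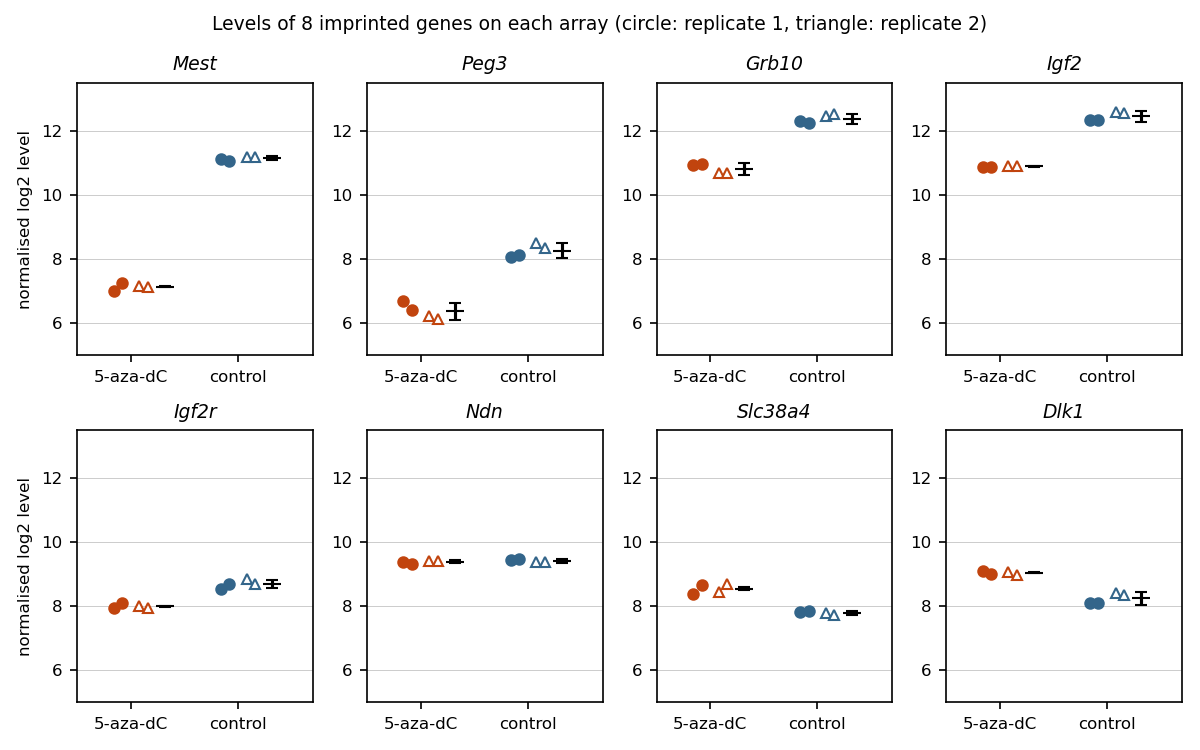
Normalised log2 level of the 8 tested imprinted genes on each array, with 5-aza-dC arrays left of control arrays, biological replicate 1 as circles, replicate 2 as triangles and the bar as mean ± SD of the 2 replicates. The groups are apart for every gene but Ndn, by -4.01 for Mest and by 0.80 for Dlk1 on the log2 scale.

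The arrays themselves were of even quality. Mean signals ranged from 295 to 376 intensity units between arrays, 12841 to 13595 probes were detected per array, and log2 levels correlated at 0.987 to 0.988 between 5-aza-dC replicates, at 0.996 between control replicates and at 0.919 to 0.930 between groups (across probes, which are not independent replicates). Signals are quoted below as deposited, with no background subtraction, and the lowest signal of any detected probe was 54.6 to 62.1 per array. Fold changes come from background-corrected, normalised log2 levels, so near background they exceed the plain ratio of signals. The arrays measured bulk RNA, in which fewer cells of a type and less RNA per cell cannot be told apart.

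Mest, also called Peg1, is a paternally expressed gene that encodes a protein of the alpha/beta hydrolase fold and is abundant in mesoderm of the embryo. Its brightest probe (ILMN_2846904) read 143, 185, 166 and 178 on the 5-aza-dC arrays, against 2458, 2425, 2124 and 2362 on the control arrays. Every 5-aza-dC array was far below every control array, and the probe stayed above background on all 8. The normalised log2 level was 7.14 ± 0.01 with 5-aza-dC and 11.15 ± 0.06 in control (SD, n = 2 each), a log2 fold change of -4.01 ± 0.10 (SE; limma adjusted p = 2.241e-05). This was rank 8 from the lowest of the 9502 genes. The 2 other Mest probes gave the same picture. ILMN_2642417 read 94.1, 109, 97.9 and 105 with 5-aza-dC, against 1168, 1220, 1122 and 1183 in control, and was 15.6-fold lower. ILMN_2642418 read 58.6, 74.0, 73.3 and 75.6 with 5-aza-dC, against 450, 461, 433 and 521 in control, and was 10.9-fold lower (log2 fold change -3.44 ± 0.13). The 5-aza-dC signals of ILMN_2642418 lay close to background, with a detection p of up to 0.0238, so its fold change is the least certain of the 3. On the authors' normalised values it was -2.61 on the log2 scale in place of -3.44, and ILMN_2642417 was -3.38 in place of -3.97.

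**Figure D2:**
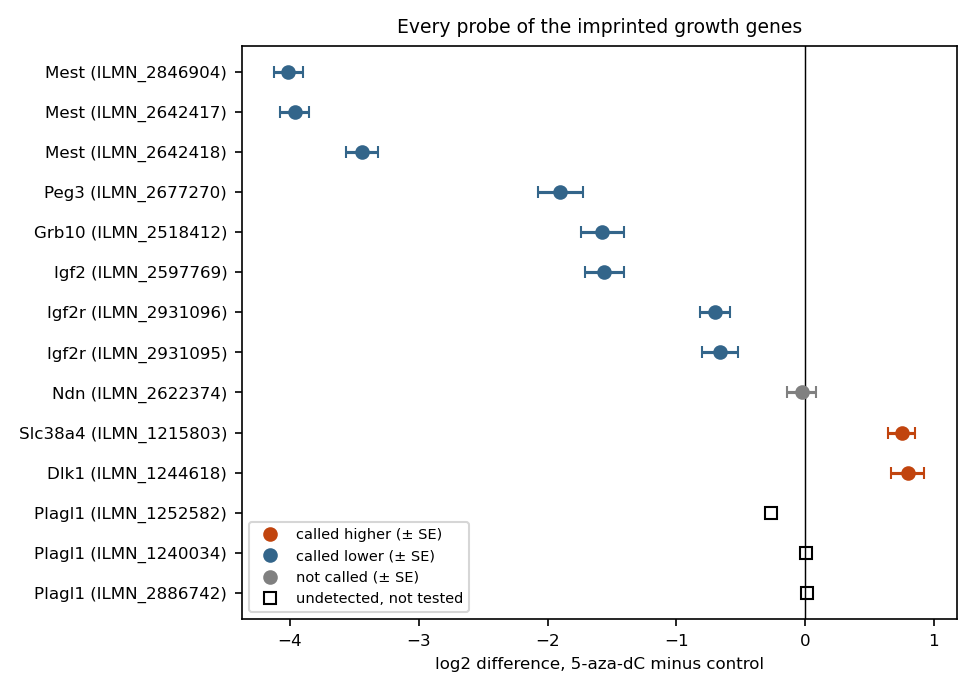
Log2 difference, 5-aza-dC minus control, of each of the 14 probes, with the SE from the fit over all kept probes (n = 2 per group). The 3 Mest probes lie between -4.01 and -3.44, 2 probes lie above 0 as called, and the open squares are the 3 Plagl1 probes that no array detected.

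Peg3 is a paternally expressed gene for a large zinc finger protein that in mice affects growth and maternal behaviour. Its probe read 122, 117, 103 and 106 with 5-aza-dC, against 320, 333, 367 and 371 in control. All 5-aza-dC arrays were lower, and replicate 2 was the lower of the 5-aza-dC replicates and the higher of the control replicates. The log2 level was 6.37 ± 0.27 with 5-aza-dC and 8.27 ± 0.23 in control (SD, n = 2 each), and the gene fell by 1.90 ± 0.18 on the log2 scale, or 3.73-fold (SE; limma adjusted p = 0.0005274). Peg3 stood at rank 145 from the lowest of all genes tested.

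Igf2, insulin-like growth factor 2, is the paternally expressed ligand of the network and a main driver of fetal growth. It signals through the receptor Igf1r, while Igf2r, a maternally expressed membrane receptor in mice, carries it to lysosomes for breakdown. Igf2 read 1620, 1848, 1987 and 2153 on the 5-aza-dC arrays, against 5911, 5847, 5767 and 6211 on the control arrays. No 5-aza-dC array came near a control array. Igf2 fell by 1.56 ± 0.15 on the log2 scale, or 2.95-fold (SE; limma adjusted p = 0.0006088), with levels of 10.90 ± 0.02 with 5-aza-dC and 12.46 ± 0.17 in control (SD, n = 2 each). Its neighbour and counterpart H19, a maternally expressed non-coding RNA under the same control region, was not analysed here for want of a listed probe.

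Igf2r had 2 probes. The brighter one read 245, 301, 280 and 291 with 5-aza-dC, against 428, 481, 464 and 460 in control. The dimmer one read 191, 214, 235 and 259 with 5-aza-dC, against 341, 341, 348 and 383 in control. At both probes the groups did not overlap. The brighter probe gave a log2 fold change of -0.70 ± 0.11 (SE; limma adjusted p = 0.00337), or 1.63-fold lower, and the dimmer one -0.66 ± 0.14 (adjusted p = 0.008241 over all probes), or 1.58-fold lower. Without control replicate 2 the dimmer probe no longer passed (log2 fold change -0.54, adjusted p = 0.0786), while the brighter one passed under every alternative tried, with an adjusted p of at most 0.04335.

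Grb10 encodes an adaptor protein that binds insulin and IGF receptors and dampens their signal. It is expressed from the maternal allele in most tissues of the mouse and from the paternal allele in neurons. Its probe read 1669, 1950, 1674 and 1839 with 5-aza-dC, against 5688, 5471, 5278 and 5936 in control. All 4 of the 5-aza-dC arrays were well below the control arrays. Grb10 fell by 1.57 ± 0.17 on the log2 scale, or 2.98-fold (SE; limma adjusted p = 0.0008194), which differed from the fall of Igf2 by less than either SE.

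Dlk1, a paternally expressed transmembrane protein related to Notch ligands, keeps preadipocytes from differentiating. It read 512, 539, 560 and 571 on the 5-aza-dC arrays, against 326, 328, 350 and 370 on the control arrays. The lowest 5-aza-dC array was above the highest control array. Dlk1 rose by 0.80 ± 0.13 on the log2 scale, or 1.74-fold (SE; limma adjusted p = 0.0038), to 9.04 ± 0.01 with 5-aza-dC, against 8.25 ± 0.20 in control (SD, n = 2 each).

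Slc38a4 encodes a paternally expressed transporter of neutral amino acids that is known from placenta and liver. It read 322, 431, 367 and 475 with 5-aza-dC, against 271, 283, 237 and 251 in control. Here the technical arrays of a 5-aza-dC replicate differed more than the replicates did, yet none fell into the control range. Slc38a4 rose by 0.75 ± 0.10 on the log2 scale, or 1.68-fold (SE; limma adjusted p = 0.00196). Neither this rise nor that of Dlk1 reached 2-fold, and 26.3% of all genes were called higher.

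Ndn, or necdin, is a paternally expressed gene of the MAGE family that restrains proliferation and is known from neurons. It read 614, 664, 709 and 779 with 5-aza-dC, against 782, 803, 650 and 706 in control. The groups overlapped. The log2 fold change was -0.03 ± 0.11 (SE; limma adjusted p = 0.8569), and it lay between -0.12 and 0.02 over the alternatives tried. Plagl1, or Zac1, a paternally expressed zinc finger transcription factor that in mice controls other imprinted genes of this network, could not be measured. Its 3 probes read between 41.2 and 57.0 on all 8 arrays, with detection p-values of 0.0677 to 0.863, and none was detected on any array of either group. Such signals do not show whether Plagl1 is transcribed at a low level.

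The calls of the 8 tested members held in each of 16 settings, the reported one included, with 7 genes called in every one and Ndn in none. Mest ranged from -4.11 to -3.62 on the log2 scale, Peg3 from -2.09 to -1.53, Igf2 from -1.69 to -1.44 and Grb10 from -1.71 to -1.44. Igf2r ranged from -0.81 to -0.62. Dlk1 ranged from 0.65 to 0.94 and Slc38a4 from 0.64 to 0.79, and Slc38a4 rose more than Dlk1 only without control replicate 1 (0.79 for Slc38a4 and 0.65 for Dlk1).

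**Figure D3:**
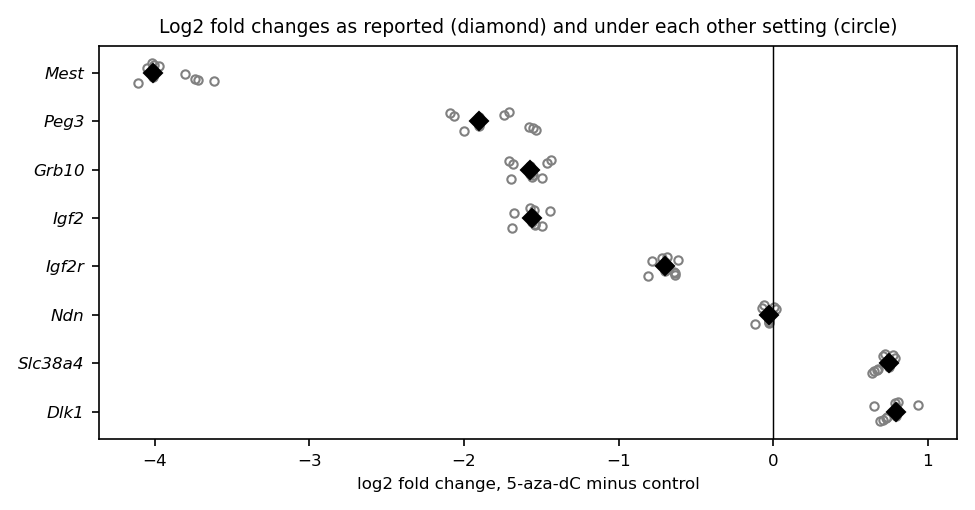
Log2 fold change, 5-aza-dC minus control, of the 8 tested members as reported (diamond) and under each alternative (circles), which differ in background correction, normalisation, filter, probe choice, model or replicates left out. Mest lies between -4.11 and -3.62, and all circles of a gene lie on the same side of 0 except those of Ndn.

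Imprinted genes share control regions with their neighbours, and 42 further genes of the members' domains and of the nearby Kcnq1ot1 domain were examined. Of these 27 are on the array and 14 were tested, 7 were called higher, 3 lower and 4 not, where 26.3% and 25.7% of all genes were called higher and lower. All 7 higher genes lie in the Kcnq1ot1 domain, beside Igf2 and H19, in which 8 genes were tested of 13 on the array. The others, Th, Ascl2, Tspan32, Kcnq1 and Osbpl5, were detected on no array of either group. Of the 7, however, 4 (Phlda2, Slc22a18, Tnfrsf23 and Tnfrsf26) were undetected on every control array and passed the detection filter through 5-aza-dC arrays alone, so the count is not comparable with the share over all genes. The domain is ruled by the paternally expressed non-coding RNA Kcnq1ot1, which silences maternally expressed neighbours in cis. Kcnq1ot1 itself had no listed probe and was not measured. Tnfrsf22, a decoy receptor for the death ligand TRAIL in mice, had log2 levels of 11.12 and 10.53 in the 5-aza-dC replicates, against 7.36 and 7.66 in the control replicates. It was 9.98-fold higher (log2 fold change 3.32 ± 0.22, SE; limma adjusted p = 0.0001784). Its relatives Tnfrsf23 and Tnfrsf26 were undetected on every control array and were at least 1.51-fold and at least 1.08-fold higher, where "at least" puts an undetected level at the dimmest detected probe of the same array. Such a bound holds for the reported normalisation only, since the log2 fold change of Tnfrsf23, 1.06 as measured, was 0.50 with a background offset of 50. The sequences of this family are alike, and cross-hybridisation between its probes was not tested.

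Cdkn1c, the cell cycle inhibitor p57 that restrains growth, had log2 levels of 6.70 and 6.62 with 5-aza-dC, against 6.10 and 6.11 in control, and was 1.47-fold higher (limma adjusted p = 0.005279). Phlda2, which limits placental growth, had 5.22 and 5.61 with 5-aza-dC, against 4.26 and 4.26 in control, where no array detected it, and was at least 1.46-fold higher. Nap1l4, a histone chaperone, was 1.66-fold higher, but not without control replicate 2 (adjusted p = 0.07934). Slc22a18, a membrane transporter, had a log2 fold change of 0.31 with no rise left at its bound, and lost its call when control replicate 1 (adjusted p = 0.1954), control replicate 2 (0.08517) or 5-aza-dC replicate 2 (0.05344) was left out or the variance trend omitted (0.05248). Cd81, a tetraspanin, was the tested gene of the domain that was not called (-0.19).

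Around Ndn, Snrpn, which encodes a splicing protein and hosts the control region of that domain, was 1.62-fold lower, with log2 levels of 9.44 and 9.49 with 5-aza-dC, against 10.22 and 10.10 in control. Mkrn3, a ubiquitin ligase gene, was 1.58-fold lower. Magel2 (-0.07) and Ube3a (0.12) were not called, as Ndn was not. Beside Grb10, Ddc, the gene of an enzyme of dopamine and serotonin synthesis, was at least 1.17-fold lower and undetected on every 5-aza-dC array, and Cobl (-0.24) was not called. Without control replicate 1, Snrpn (adjusted p = 0.06498) and Ddc (0.06486) were no longer called, which left 1 lower neighbour of 3. No listed neighbour of Mest, Peg3, Igf2, Igf2r, Dlk1 or Plagl1 passed the detection filter.

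**Figure D4:**
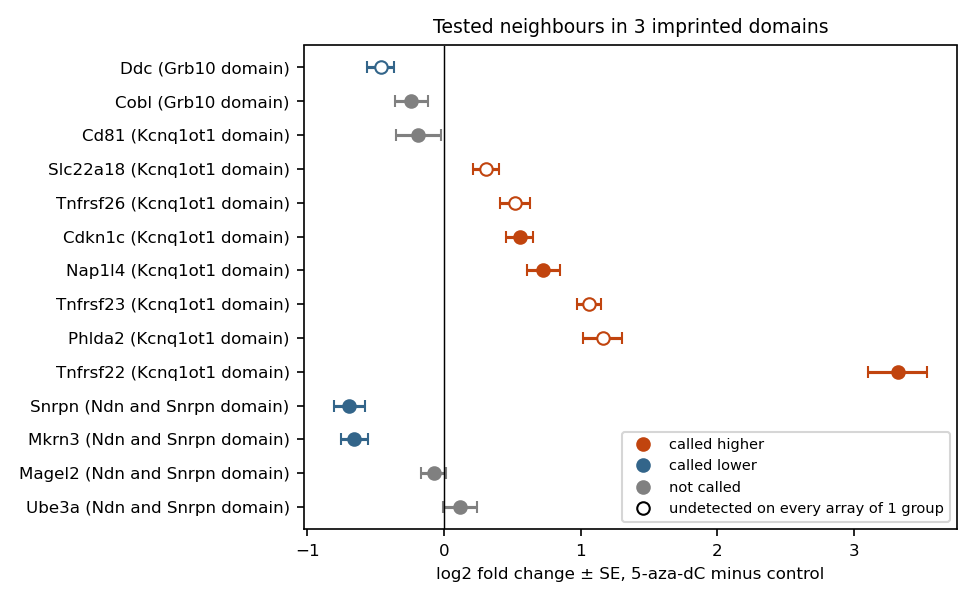
Log2 fold change ± SE, 5-aza-dC minus control (n = 2 per group), of the 14 tested neighbours in the Grb10, Kcnq1ot1, and Ndn and Snrpn domains. In the Kcnq1ot1 domain 7 of 8 genes lie to the right as called, with Tnfrsf22 at 3.32, and open symbols are genes undetected on every array of 1 group, whose plotted values are not bounds.

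Genes were then taken by position alone, as the 5 array genes on each side of each member in RefSeq order. Of these 90 genes 41 were tested, and 6 were higher, 13 lower and 22 not called (46.3% called, against 52.0% of all genes). The median log2 fold change was -0.18. Tested genes already counted among the domain neighbours were Cd81, Snrpn, Mkrn3, Magel2, Ube3a, Ddc and Cobl. Beside Mest, the centrosomal gene Cep41 lay next to it and was 2.59-fold lower (limma adjusted p = 0.0004727), while Podxl, which encodes podocalyxin, was 3.21-fold higher (adjusted p = 0.0001339). Near H19 and Igf2, the mitochondrial ribosomal protein gene Mrpl23 was 2.83-fold lower (adjusted p = 0.01849). Its log2 fold change ran from -2.10 to -0.91 over the alternatives. No other flanking gene was called with more than a 2-fold difference.

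A list named for the IGF pathway beyond Igf2 and Igf2r held 33 genes, but Notch receptors and Plag1 were also on it. Of the 33 genes 21 were tested, 10 lower, 2 higher and 9 not called, where 25.7% of all genes were called lower and 26.3% higher. The median log2 fold change was -0.20. Notch1, Notch3 and Plag1 were among the 10 lower. No array of the 5-aza-dC group detected 2 of the 10, Notch3 and Plag1. These passed the detection filter through control arrays alone, so the count is not comparable with the share over all genes. Among the extracellular proteins, Igfbp2 and Igfbp5, which bind IGFs and alter their access to the receptor, were 6.81-fold and 4.58-fold lower (limma adjusted p = 7.34e-05 and 0.0001504). The ligand Igf1 was 2.15-fold lower, with log2 levels of 4.71 and 5.00 with 5-aza-dC, against 6.03 and 5.89 in control. Igfbp5 and Igf1 lay near background with 5-aza-dC, and over the alternatives their log2 fold changes, -2.19 and -1.10 as reported, shrank to -1.43 and -0.61. The receptor Igf1r had a log2 fold change of -0.19 ± 0.11 (adjusted p = 0.214) and was not called. Notch3, listed as a receptor linked with Dlk1, was undetected on every 5-aza-dC array and at least 1.64-fold lower under the reported normalisation. Its log2 fold change, -1.06 as measured, was -0.51 with an offset of 50. The 2 genes called higher were Igfbp6, which prefers Igf2 among its ligands (log2 fold change 0.50), and Igf2bp1, which encodes a binding protein of Igf2 mRNA (0.40). Neither was called when control replicate 1 was left out (adjusted p = 0.1218 and 0.2123), when control replicate 2 was left out (0.164 and 0.2256) or with arrays scaled to their median (0.1229 and 0.05284). Igfbp6 was also lost without 5-aza-dC replicate 2 (0.05414) and Igf2bp1 with the replicate number as a block (0.1097). The lower genes numbered 6 without control replicate 2.

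A further list was named for factors that copy or protect imprints, but Vhl, which is not known for that role, was also on it. Of its 25 genes 16 were tested, with 4 higher, 2 lower and 10 not called, where 52.0% of all genes were called. The median log2 fold change was 0.20. Uhrf1, which brings Dnmt1 to newly replicated DNA, was 2.30-fold higher and Dnmt1 itself 1.81-fold higher (limma adjusted p = 0.001048 and 0.001732). Cbx5, which encodes heterochromatin protein HP1 alpha, was 1.95-fold higher. Ctcfl, a germ line paralogue of the insulator protein Ctcf, had a log2 fold change of 0.35 and lost its call when control replicate 1 (adjusted p = 0.06996) or control replicate 2 (0.2072) was left out, without the detection filter (0.05335) and on the authors' normalised values (0.05212). Nsd1, a histone H3 lysine methyltransferase, was 1.64-fold lower and Vhl 1.60-fold lower. With the mean of its kept probes the log2 fold change of Nsd1 was -0.36 in place of -0.71. Ctcf (0.33, adjusted p = 0.06694) and Trim28 (0.17), a corepressor that guards imprints, were not called. Without 5-aza-dC replicate 2, 8 genes of this list were called higher in place of 4.

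Genes listed as imprinted in other domains were called in both directions. Whether these genes, or the domain neighbours above, are imprinted in fibroblasts was not tested. Of 39 listed genes 20 were tested, 9 were higher, 5 lower and 6 not called, with a median log2 fold change of 0.14, where 26.3% and 25.7% of all genes were called higher and lower. Dcn, the matrix proteoglycan decorin, was 6.96-fold lower. Smoc1, a secreted calcium-binding protein, was 5.18-fold and Ano1, a chloride channel, 4.79-fold higher. Each was detected on 1 of 4 control arrays, and over the alternatives their log2 fold changes went down to 1.52 and 1.40. Xist, the non-coding RNA of X inactivation, was at least 3.32-fold higher under the reported normalisation, with log2 levels of 6.79 and 6.42 with 5-aza-dC, against 4.42 and 4.42 in control, where no array detected it. Its log2 fold change, 2.19 as measured, was 1.41 with no background correction, 1.34 on the authors' normalised values and 1.25 with an offset of 50. Nnat (1.86-fold lower, detected on 2 of 4 5-aza-dC arrays), Trappc9 (2.10-fold lower), Pon3 and Ppp1r9a were the remaining lower genes. With the mean of its kept probes the log2 fold change of Trappc9 was -0.74 in place of -1.07. Ppp1r9a was lost when either control replicate was left out (adjusted p = 0.07443 for replicate 1 and 0.211 for replicate 2) and without the detection filter (0.06325).

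The genes whose pattern over the 8 arrays was most like that of Mest, by Euclidean distance of log2 levels centred on the control mean, were Nrep, Lpar4, Itga11, Adamts5 and Lrrc15, at distances of 0.319 to 0.636. All 5 were 13.2-fold to 16.1-fold lower after 5-aza-dC, and over the alternatives the smallest difference was a log2 fold change of -2.87 for Itga11. Itga11 is a collagen-binding integrin subunit and Adamts5 a protease of matrix proteoglycans.

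Markers of cell type and growth state moved in the same samples. Their counts have to be read against all 9502 genes tested, of which 26.3% were called higher and 25.7% lower. Of 14 fibroblast markers on the array 13 were tested, with 9 lower, 2 higher (Thy1 and Twist2) and a median log2 fold change of -1.88, and their summed signal was 19963 to 23420 on 5-aza-dC arrays, against 47017 to 51437 on control arrays. Fap was detected on no array. All 12 tested of 13 proliferation genes were higher, with a summed signal of 19507 to 22555 with 5-aza-dC, against 11140 to 12803 in control, and Bub1 was detected on no array. Epithelial markers summed to 1956 to 2405 with 5-aza-dC, against 501 to 537 in control, with Krt5 and Esrp1 undetected throughout. Germ cell markers summed to 4979 to 5756 with 5-aza-dC, against 641 to 720 in control, and Sycp3, Mael and Dppa3 were undetected throughout. Of the 7 germ cell genes tested 6 were higher, but 5 of these were undetected on every control array and passed the detection filter through 5-aza-dC arrays alone, as did 5 of the 6 higher genes among the 8 epithelial markers tested. The germ cell and epithelial counts are therefore not comparable with the shares over all genes. The part of these marker shifts in the values of the imprinted genes was not tested.

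Many markers of other cell types that express Dlk1, Mest or Ndn were detected on no array, but some tested ones were well above background. Over all genes tested, 26.3% were called higher and 25.7% lower. Log2 levels with 5-aza-dC, against control, were 10.01 and 6.90 for Nes, 8.35 and 5.61 for Acta1, and 14.13 and 7.21 for Psg23. Those of Stmn2 were 8.07 and 9.42, and those of Map2 6.95 and 8.14. Of 8 adipocyte markers 3 were tested, with 1 higher (Pparg) and 1 lower (Lpl), Adipoq, Fabp4, Plin1, Cd36 and Lep were detected on no array, and the sum was 647 to 717 with 5-aza-dC, against 540 to 584 in control. Of 8 skeletal muscle markers 3 of 4 tested were higher (Acta1, Myod1 and Des), and Ckm, Myf5, Myf6 and Tnnt3 were detected on no array. Of the 3, Myod1 and Des were undetected on every control array and passed the detection filter through 5-aza-dC arrays alone. The muscle count is therefore not comparable with the share over all genes. The sum was 737 to 825 with 5-aza-dC, against 437 to 482 in control. Of 10 neural markers 4 were tested, with 1 higher (Nes) and 2 lower (Map2 and Stmn2), Sox2, Gfap, Olig2, Rbfox3, Snap25 and Syt1 were detected on no array, and the sum was 1815 to 2637 with 5-aza-dC, against 1707 to 1873 in control. Of 10 blood and endothelial markers 2 were tested, Cd14 higher and Cd3e lower. Cd3e was undetected on every 5-aza-dC array and passed the detection filter through control arrays alone. Ptprc, Cdh5, Kdr, Tek, Cd79a, Hba-a1 and Itgam were undetected, and the sums were 637 to 675 with 5-aza-dC, against 610 to 647 in control. Of 9 trophoblast markers, the placental glycoprotein gene Psg23 alone was tested, and it carried the sum of 17871 to 18725 with 5-aza-dC, against 862 to 917 in control. Cdx2, Elf5, Tfap2c, Hand1, Ascl2 and the Psg23 relatives Psg17, Psg18 and Psg19 were detected on no array.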

How the data were processed

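Gene expression was measured on 8 bead arrays (4 per group). Per the file headers, the deposited non-normalised table gives 2 columns per array, the average bead intensity (linear, background not subtracted) and its detection p-value. The authors also deposited normalised intensity values on the linear scale, made with lumi (version not given in the sources used here) by background subtraction, variance stabilisation and robust spline normalisation, and these served as an alternative. The probe annotation is that of a RefSeq-content array, a relative of the whole-genome array in the methods. Of 25697 probes, symbols were taken by Entrez identifier for 23962, by accession for 9 and as given for 7, and 1719 were not listed.

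Signals were processed with R 4.3.3, limma 3.58.1 and version 1.17.8 of data.table (neqc with an offset of 16 and negative controls deduced from detection p, quantile normalisation, log2). Probes with a detection p under 0.05 on at least 2 arrays were kept (14308 probes, 9502 genes), and a gene was represented by its brightest kept probe. Technical arrays were averaged, and groups were compared in limma with a variance trend (prior degrees of freedom 3.82, residual 2) and two-sided tests adjusted by Benjamini-Hochberg. Fold changes are 5-aza-dC over control, with a precision limited by the number of arrays (median SE 0.12 on the log2 scale). The fit was tested on simulated data. Promoters and figures used Python 3.11.15, pandas 2.3.3 and matplotlib 3.10.9, and RefSeq sequences of GRCm38.p6. No build is named for the array values.

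Members and lists (imprinted domain neighbours, other imprinted genes, IGF pathway, imprint maintenance factors, and markers of fibroblasts, epithelium, skeletal muscle, adipocytes, trophoblast, blood and endothelium, neural cells, germ cells and proliferation) were chosen with earlier results of these data known. All members were named. From each list of imprinted, IGF and maintenance genes the 4 called genes with the largest change and all genes of a count of 5 or fewer were named, and flanking genes only if called and over 2-fold. Marker lists are given by their counts and summed signals. Other genes named without a call, and the 5 windows printed, were chosen after their values were seen. Alternatives were other normalisations, background corrections, detection filters, probe rules, entry of technical arrays singly, a replicate block, no variance trend and each replicate left out.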

Additional observations from a re-analysis of the deposited data

How the results depend on the processing

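All member calls kept their direction and their side of the threshold in all 15 alternatives at gene level, and at probe level 1 call ended, that of the dimmer Igf2r probe without control replicate 2. Plagl1 entered only without the detection filter (log2 fold change -0.27, adjusted p = 0.04351), with a probe that no array detected. Counts of calls moved by over 1.5 times as follows. Leaving out each replicate in turn, genes called higher ranged from 1568 to 2943 over all genes, against 2497 as reported, IGF pathway genes called higher from 0 to 3 and lower from 6 to 10, domain neighbours called lower from 1 to 4, and maintenance factors called higher from 3 to 8. IGF pathway genes called higher numbered 0 with median scaling. Domain neighbours called higher numbered 4 with the strict detection filter (p under 0.01 on all 4 arrays of a group), which removes genes dim in both groups. Maintenance factors called higher numbered 8 with technical arrays entered singly. For named genes of the lists, 643 values kept their side of the threshold, 22 lost a call and 4 gained one, and 0 called values changed direction. The deviations of 5-aza-dC replicate 1 and control replicate 1 correlated at r = -0.63 over 9502 genes, and the source of this was not tested. No label pairs replicates of the 2 groups beyond their numbers, so the replicate block was an alternative. It gave 2177 higher and 2208 lower genes, 1 higher gene of the IGF pathway, and 2 higher and 5 lower members, as reported. A block with crossed numbers, chosen after seeing the data, gave 3043 higher and 3128 lower genes, 7 higher maintenance factors and the same member counts of 2 and 5. Signal over background limits Plagl1, the dimmest Mest probe and the neighbours undetected in 1 group.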
